A study of Homo sapiens with 3 samples.

Results

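The comparison described here set the ERα17p peptide against vehicle in MDA-MB-231, a long-established breast cancer line from a human tumour. The line has a mesenchymal-like form and is generally held to lack the oestrogen receptor alpha (ERα). The comparison rests on 2 of the 3 arrays of the series, 1 for each condition. One array held RNA of cells given 0.1% ethanol for 3 h, and the other held RNA of cells given 1 µM ERα17p for 3 h. Both cultures had first spent 4 h in RPMI medium with 10% serum that had been stripped of steroids with charcoal. The remaining array, of cells given 1 µM estradiol for 3 h, is used below only to set values side by side. The sources used here do not give the solvent of the peptide, and each group was a single culture of a single line, so a difference in solvent, culture or array handling cannot be told apart from one due to the peptide.

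ERα17p is a synthetic peptide that copies a stretch of human ERα near the border of its hinge and its ligand-binding domain. It has been reported to bring about apoptosis of breast cancer cells and to act on the membrane oestrogen receptor GPER1, and the comparison asks which transcripts differ early after it is given. Apoptosis starts either at death receptors on the cell surface or at mitochondria, where BCL2-type proteins hold the BAX-type effectors in check. Cell shape and movement depend on actin filaments, on the myosin and focal contacts that load them, and on integrins and proteases that work on the matrix. Growth factor signals pass through RAS and MAP kinases to immediate early genes such as EGR1 and FOS, whose transcripts appear within minutes and soon decay.

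Expression was read on Affymetrix HG-U133 Plus 2 arrays. Of 54675 probe sets, 41097 were paired with exactly 1 gene symbol and gave 19775 genes. The value of a gene is the median of its probe sets, and its difference is the median over probe sets of the ERα17p value minus the vehicle value, so the 2 array values need not subtract to it exactly. All values are on a log2 scale and had each been centred, for its own probe set, on some reference that is not described in the sources. A value of 0 therefore marks that reference and no expression level is known. With 1 array a side there is no test, no replicate error and no p-value, and each fold describes these 2 arrays only.

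The vehicle array stood apart from both treated arrays, and every difference below rests on it. The SD of its values over all probe sets was 0.494, against 0.241 with ERα17p and 0.260 with estradiol. Labelling spikes, bacterial RNAs added to each sample, were 2.04 higher on the ERα17p array than on the vehicle array (median of 27 probe sets), and hybridisation spikes were 0.93 lower, at -0.93 (18 probe sets). Of the markers of cell types, 2 of 7 of mesenchymal-like breast lines passed 1.5-fold on the high side with ERα17p (SNAI2 at 2.08 and ZEB1 at 0.61) and 0 on the low side. Of 7 luminal epithelial markers 1 was lower (KRT18 at -0.87) and 0 higher. No marker of blood cells (4 measured) or of fibroblasts and endothelium (4 measured) passed 1.5-fold. Summed over each list, the centred values on the vehicle and ERα17p arrays were -1.89 and 0.84 for mesenchymal-like, 1.09 and -0.55 for luminal, -0.35 and 0.14 for blood, and -0.27 and 0.50 for fibroblast and endothelial markers. Since centred values give no level, the identity of the cells could not be checked from their markers, and the part of the spikes and markers in the results was not tested.

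With ERα17p, 661 genes stood 2-fold or more above vehicle (3.34% of those measured) and 491 stood 2-fold or more below it (2.48%). Most of these differences lay on the vehicle side of the reference. The genes called higher had a median centred value of -1.08 with vehicle, 0.19 with ERα17p and 0.19 with estradiol. Those called lower had medians of 0.98, -0.23 and -0.09 on the same arrays. The ERα17p array was itself at least 1.5-fold above the reference for 40 of the 661 genes and at least 1.5-fold below it for 64 of the 491.

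**Figure D1:**
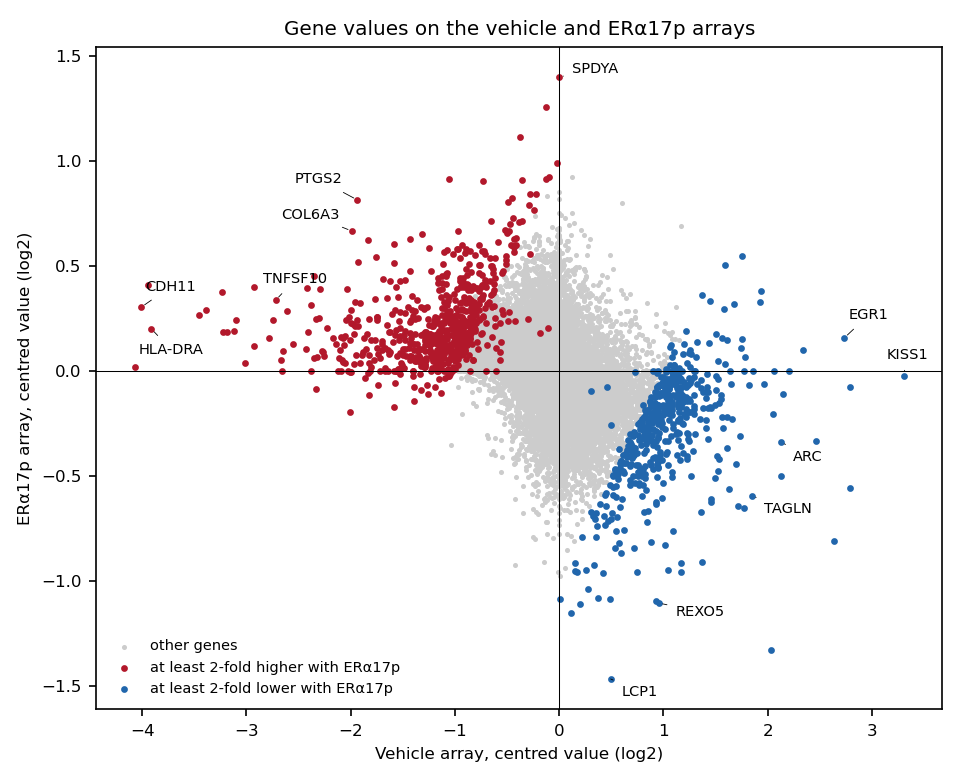
Each point is a gene, placed by its centred log2 value on the vehicle array (horizontal axis) and on the ERα17p array (vertical axis); red and blue mark genes at least 2-fold higher or lower with ERα17p, called on the median of probe set differences. The horizontal axis spans a wider range than the vertical one, and most coloured points, such as CDH11 at -4.01 against 0.31 and KISS1 at 3.30 against -0.02, lie far from 0 on the vehicle array only, while LCP1 (0.49 against -1.46) lies far from 0 on the ERα17p array.

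The probe sets of a gene did not always lie on the same side of vehicle. Among the 10523 genes with 2 or more probe sets, 44.5% had all of them on 1 side of 0. Among the called genes with 2 or more probe sets the share was 334 of 367 (91.0%) on the high side and 156 of 181 (86.2%) on the low side. Those genes were called on the median of the same probe sets, which favours a shared side, so the shares are a description and support nothing. A stricter rule, in which every one of 2 or more probe sets had to pass 2-fold, left 108 genes higher (1.03% of 10523) and 58 lower (0.551%). Ranked by the probe set nearest to 0, the higher genes were led by a pair for antigen-presenting MHC proteins, HLA-DRA and HLA-DPA1, and TNFSF10 came next.

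TNFSF10 encodes TRAIL, a death ligand that triggers apoptosis in many tumour cells. It stood at -2.72 with vehicle, 0.00 with estradiol and 0.34 with ERα17p, a difference of 3.06 from vehicle (8.33-fold), with its 3 probe sets between 2.93 and 3.33. Others of the first 12 by this ranking were NOX5, an oxidase that makes superoxide (2.53), the phosphatase PDP1 of the pyruvate dehydrogenase complex (2.30), the prostaglandin synthase PTGS2 (2.75), the annexin ANXA4 (2.12) and the secretory disulphide isomerase AGR2 (3.31). SH3BGRL (2.33), ANKRD29 (2.19), SCML1 (2.14) and the cadherin CDH11 (4.35) completed them. For 10 of the 12 the ERα17p array differed from the reference by less than 1.5-fold, while vehicle was far below it; the exceptions were PTGS2 (0.82 on the ERα17p array) and ANKRD29 (0.61).

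On the low side, ZNF114, a zinc finger gene, came first by the same ranking (-2.80, both probe sets at -2.76 or below), followed by EGR1 (-2.58) and AP1M2 (-2.35), a subunit of an epithelial clathrin adaptor. REXO5 differed by -2.06, the mitochondrial arginase ARG2 by -2.13 and the mitochondrial carrier UCP2 by -2.03. These 3 and AP1M2 were the ones among the 12 with an ERα17p array at least 1.5-fold below the reference, at -1.10 for REXO5, -0.96 for ARG2, -0.67 for UCP2 and -0.64 for AP1M2. The glycolytic enzyme PKM (-1.88), the fatty acid desaturase family member FADS3 (-1.55), the translation factor EIF5A (-1.79), the phospholipase PLCB4 (-1.71) and RAB15 (-1.63) were also among them. HNRNPA1 (-2.01) has many near-identical pseudogene copies, and its signal cannot be assigned to 1 gene with certainty; the same holds in part for EIF5A.

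The transcripts of apoptosis, actin, migration and signalling were described through 21 lists of 439 genes, of which 396 were measured and 43 were not analysed here. Of the 396, 74 passed 1.5-fold on the high side and 55 on the low side. Over all 19775 genes the same rule called 9.56% higher and 8.82% lower, against 18.7% and 13.9% of the list members. Since no expression level is left, the lists could not be set beside genes of like expression, and nothing particular to them is read from these shares. List members quoted below that did not pass 1.5-fold fall outside the rule for naming and were chosen after their values were seen. Called members with 2 or more probe sets numbered 87, and in 67 of them the probe sets all lay on 1 side of 0. They were called on the median of the same probe sets, so this too is a description and supports nothing.

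**Figure D2:**
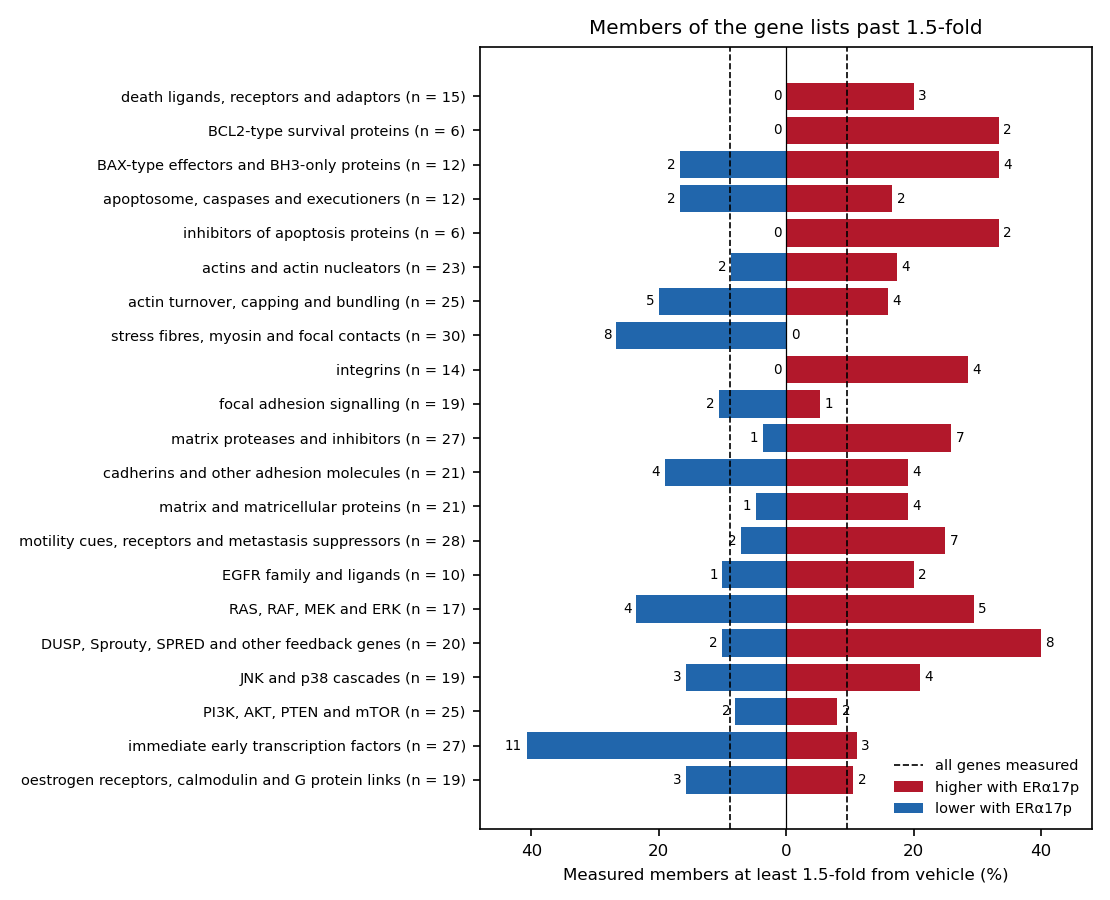
Bars give the percentage of each list's measured members (n in brackets) that were at least 1.5-fold higher (red, right) or lower (blue, left) with ERα17p, with their number at the bar's end; dashed lines mark the same shares over all genes measured, 9.56% and 8.82%. The list labelled immediate early transcription factors, which also holds others such as ARC, has the longest bar to the left (11 of 27). DUSP, Sprouty, SPRED and other feedback genes have the longest to the right (8 of 20).

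Apoptosis genes were more often higher than lower with ERα17p. Of 51 measured members 13 passed 1.5-fold on the high side (25.5%) and 4 on the low side (7.84%), and the median difference was 0.05. Over all genes the shares were 9.56% and 8.82% and the median was 0.00. None of the 17 had an ERα17p array at least 1.5-fold from the reference, and in 13 of them the vehicle array was the farther of the pair. Among the 3636 genes called at 1.5-fold over all genes these counts were 192 and 3076. The higher genes held both death-promoting and protective members.

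At the cell surface, the ligand TNFSF10 had the largest difference, and its 2 signalling receptors on the array did not share it: TNFRSF10A differed by 0.36 and TNFRSF10B by 0.24. Both were chosen after their values were seen. TNFRSF21, or DR6, a death receptor of another kind, stood at -2.08 with vehicle, 0.07 with estradiol and 0.05 with ERα17p. Its difference was 2.14, but its probe sets lay apart, at 1.15 and 3.13. FAS, the receptor of the FAS ligand, was 0.87 higher (1.83-fold), with 5 probe sets from 0.15 to 1.96. When probe sets shared by several transcripts were left out, only the lowest remained, at 0.15. The adaptor FADD (-0.06), the initiator CASP8 (0.07) and the decoy-like inhibitor CFLAR (0.05), again chosen after their values were seen, had gene values near 0. Probe sets of CASP8 ran from -0.68 to 0.63, and the 14 of CFLAR from -1.21 to 0.94. In this list 3 of 15 were higher and 0 lower.

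At the mitochondria, 4 BH3-only genes passed 1.5-fold on the high side, PMAIP1, BNIP3, BNIP3L and BMF. BAD (-0.58), BIK (-0.36), BCL2L11 (-0.05), BID (0.06) and HRK (0.13) did not pass it in either direction. BNIP3L and BNIP3, which encode outer membrane proteins of mitophagy and cell death, were 1.37 and 1.13 higher (2.58-fold and 2.19-fold). BNIP3L was at -1.14 with vehicle, 0.04 with estradiol and 0.23 with ERα17p. BNIP3 was at -0.94, 0.18 and 0.19 in the same order. PMAIP1, or NOXA, which blocks the survival protein MCL1, was 0.77 higher, with probe sets at 0.71 and 0.83. The vehicle array was thus the low one for all 3, and the treated arrays lay close together.

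Of the effectors that open the mitochondrial membrane, BAX and BOK were lower and BAK1 was not. BAX was at 0.56 on the vehicle array and -0.04 on the ERα17p array, a difference of -0.60, and BOK was at 0.29 and -0.32, a difference of -0.61. Both values were small: BAX was at -0.45 after quantile normalisation, and BOK at -0.18 when probe sets shared by several transcripts were left out. BAK1 differed by 0.24. Altogether 4 of 12 effectors and BH3-only genes were higher and 2 lower.

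Survival genes of the BCL2 type had 2 of 6 higher and 0 lower, BCL2L2 by 0.68 and BCL2A1, named after its value was seen, by 0.72 on 1 probe set. For both the ERα17p array was farther from the reference than the vehicle array was, BCL2L2 at 0.47 against -0.21 and BCL2A1 at 0.53 against -0.19. For BCL2L2 this held on a probe set at 0.81 against 0.00 but not on the other, at 0.13 against -0.42. BCL2L2 was at 0.09 on the estradiol array. The gene values of the other members lay near 0, MCL1 at -0.25, BCL2L1 at -0.16 and BCL2 at -0.04. Their probe sets lay apart, from -2.33 to 0.51 for MCL1, -1.19 to 0.72 for BCL2L1 and -0.72 to 0.64 for BCL2.

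XIAP, which binds and blocks caspases, was the most densely measured of the called apoptosis genes. Its 7 probe sets ran from 0.47 to 1.95, with a gene value of 1.40 (2.64-fold), from -1.10 on the vehicle array to 0.30 with ERα17p and 0.21 with estradiol. BIRC6, a giant member of the same family, was 1.08 higher. Of 6 inhibitors of apoptosis proteins 2 were higher and 0 lower, with BIRC5, or survivin, at -0.50. Among the apoptosome, caspases and executioners 2 of 12 were higher and 2 lower (median -0.22), with the nuclease DFFB 1.46 higher on its 1 probe set, CASP9 at 0.32 and APAF1 at -0.27.

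**Figure D3:**
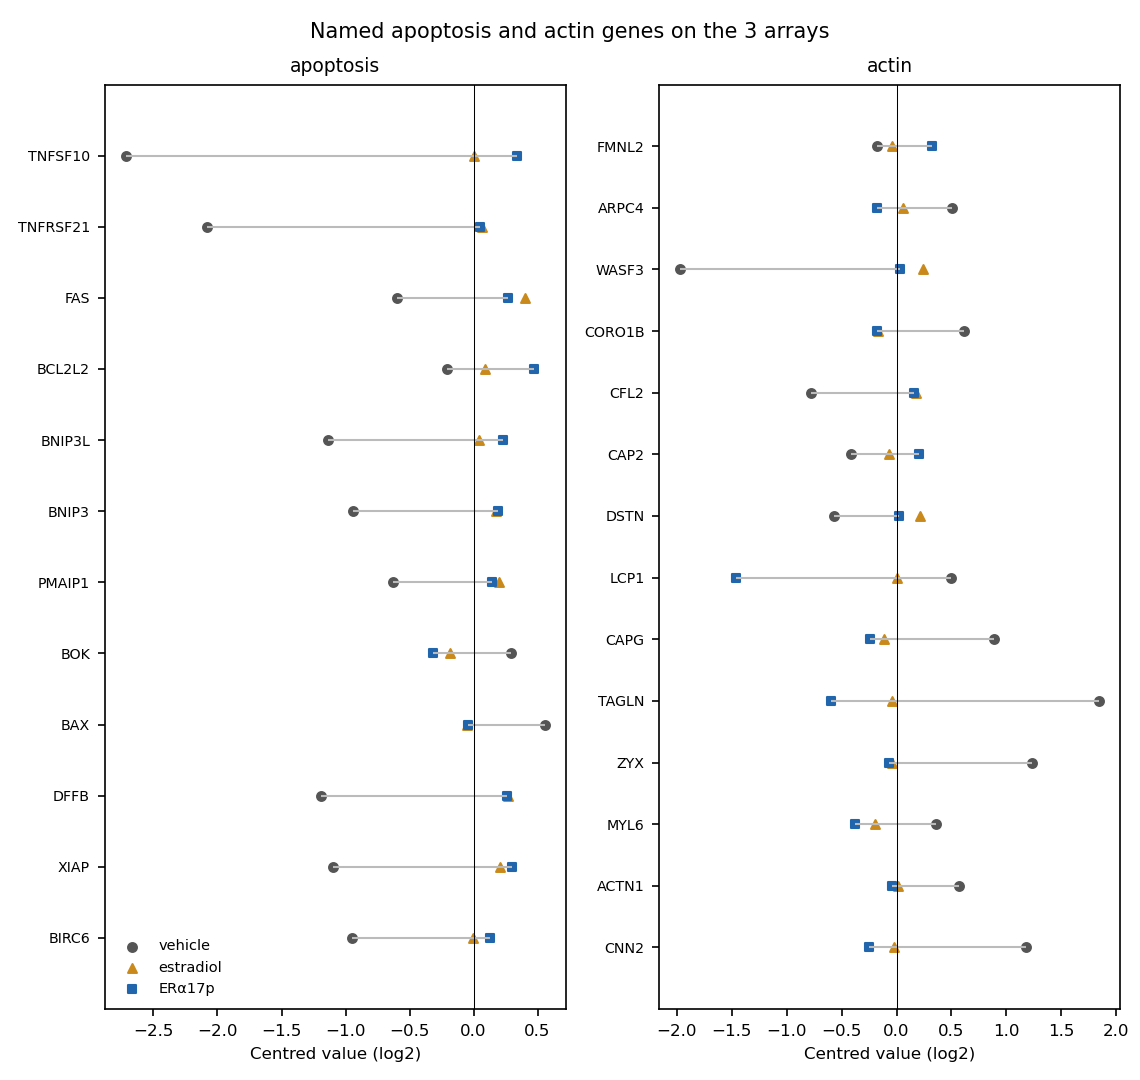
Centred log2 values (horizontal axis) of the named apoptosis genes (left panel) and actin genes (right panel) on the vehicle (grey circle), estradiol (orange triangle) and ERα17p (blue square) arrays, with a line from vehicle to ERα17p. In most rows both treated arrays lie near 0 and the vehicle array away from it, as for TNFSF10 (-2.72 on vehicle, 0.34 on ERα17p); LCP1 is at 0.49, 0.00 and -1.46 on vehicle, estradiol and ERα17p.

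Actin genes were more often lower. Of 78 measured members 15 passed 1.5-fold on the low side (19.2%) and 8 on the high side (10.3%), and the median was -0.10. Over all genes the shares were 8.82% and 9.56%, so the high side was near background. Of the 15 lower ones, 8 were proteins of stress fibres and focal contacts, 5 belonged to filament turnover and 2 to nucleation. In the stress fibre list 8 of 30 were lower and 0 higher, with a median of -0.29, and 21 of the 30 had a difference below 0. Among all 19775 genes 9755 had a difference below 0.

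TAGLN, or transgelin, which binds actin in contractile cells, had the largest of these differences. It was at 1.85 with vehicle, -0.04 with estradiol and -0.59 with ERα17p, a difference of -2.44 (5.43-fold lower). Its 3 probe sets were at -3.91, -2.44 and -0.42, and the last is the only one of a type that matches a single transcript, so the call rests on the others. ZYX, or zyxin, a sensor of load at focal contacts, was more even: its 2 probe sets were at -1.40 and -1.20, and its array values were 1.24, -0.04 and -0.06. CNN2, a calponin, was at 1.18, -0.03 and -0.25, a difference of -1.44 on 1 probe set.

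Smaller differences in the same list came from the myosin light chain MYL6 (-0.73) and the crosslinker ACTN1 (-0.60, 4 probe sets from -0.86 to -0.24). ACTN1 was within 1.5-fold under 4 other settings that keep vehicle as baseline, at -0.33 to -0.58. Against the reference in place of vehicle it was at -0.04. ACTN4 (-0.90), PDLIM7 (-1.37) and TLN1 (-0.65), outside the rule for naming and chosen after their values were seen, were the rest of the 8, and of these PDLIM7 and TLN1 had probe sets on both sides of 0. Myosin heavy chain MYH9 (-0.19), vinculin VCL (0.25) and paxillin PXN (-0.36) did not pass 1.5-fold. ACTB itself, beta-actin, had 6 probe sets from -0.47 to -0.12, a gene value of -0.22.

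Among actin nucleators 4 of 23 were higher and 2 lower. WASF3, which activates the Arp2/3 complex at the leading edge, went from -1.97 on the vehicle array to 0.04 on the ERα17p array (0.25 with estradiol), a difference of 2.01 on 1 probe set. The formin FMNL2 was 0.73 higher, with probe sets from 0.10 to 1.31, and was at 0.32 on the ERα17p array against -0.18 on vehicle and -0.05 with estradiol. ARPC4, a subunit of Arp2/3, was at -0.68, and at -0.55 after quantile normalisation. Genes of filament turnover, capping and bundling divided evenly, with 4 of 25 higher and 5 lower.

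LCP1, or L-plastin, which bundles actin in leukocytes and in many carcinoma lines, was unlike the rest. It stood at 0.49 with vehicle, 0.00 with estradiol and -1.46 with ERα17p. Its difference from vehicle was -1.96 (3.89-fold lower), most of it on the peptide's own array. It rests on 1 probe set. The filament capper CAPG (-1.13, 1 probe set) and CORO1B (-0.79) were the other named genes on the low side, while the severing proteins CFL2 (0.78) and DSTN (0.59) and the cyclase-associated CAP2 (0.62) were on the high side; CAP2 and DSTN fell inside 1.5-fold after quantile normalisation, at 0.55 and 0.45, and CORO1B was at -0.47 and DSTN at 0.29 when shared probe sets were left out. With arrays scaled to equal SD CFL2 was at 0.58. CFL2 and CFL1, the main cofilin of non-muscle cells, lay on opposite sides, CFL1 at -0.42.

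Migration genes were more often higher. Of 130 measured members 27 passed 1.5-fold on the high side (20.8%) and 10 on the low side (7.69%), and the median was 0.11. Over all genes the shares were 9.56% and 8.82%, so the low side was near background. Of the 37, the vehicle array was the farther from the reference in 35, beside 3076 of 3636 called over all genes. Integrins had 4 of 14 higher and 0 lower. ITGA2, the alpha chain of a collagen receptor, was 1.66 higher (3.17-fold), and its 2 probe sets gave 1.66 and 1.67. ITGA6, of the laminin receptors, was 0.91 higher, with probe sets at 0.36 and 1.46, the lower being the one that is not shared by several transcripts. The beta chain ITGB1, common to many of these receptors, was at 0.51 with 7 probe sets. After quantile normalisation 2 integrins remained past 1.5-fold.

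Matrix proteases and their inhibitors had 7 of 27 higher and 1 lower (median 0.26). ADAM10, a sheddase of adhesion proteins and growth factors, was 1.43 higher, from -1.28 on the vehicle array to 0.14 on the ERα17p array and 0.00 with estradiol. Its 3 probe sets ran from 0.59 to 2.74, and the lowest is the only one not shared by several transcripts. ADAM9 was 1.09 higher and the membrane-bound collagenase MMP14 was 0.82 higher, with 4 probe sets from 0.41 to 1.23. The lysosomal protease CTSL (1.21) and the inhibitor TIMP1 (1.07) rest on 1 probe set each. MMP1, chosen after its value was seen, was the lower one, at -0.78. ADAM8 was 0.60 higher, and 0.50 after quantile normalisation. When shared probe sets were left out 3 members were higher, and MMP14 was at 0.41.

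Among cadherins and other adhesion molecules 4 of 21 were higher and 4 lower. CDH11, a cadherin of mesenchymal cells, stood at -4.01 on the vehicle array against 0.03 with estradiol and 0.31 with ERα17p. Its 4 probe sets were 2.20, 3.70, 5.00 and 7.28 higher, a wide spread. ICAM1 and VCAM1, which bind leukocyte integrins, were 1.90 and 2.43 higher. ICAM1 was at -1.82 on the vehicle array, 0.81 with estradiol and 0.08 with ERα17p. VCAM1, on 1 probe set, was at -2.04, 0.00 and 0.39. SDC1, or syndecan-1, a heparan sulphate carrier of epithelia, was lower by a difference of -1.14, and MCAM by one of -0.70, or -0.56 when shared probe sets were left out. L1CAM was 0.64 higher, and 0.51 after quantile normalisation. E-cadherin CDH1 (0.07), N-cadherin CDH2 (-0.08) and CD44 (0.58, 13 probe sets) did not pass 1.5-fold.

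Matrix proteins had 4 of 21 higher and 1 lower. COL6A3, a chain of collagen VI, was 2.66 higher on 1 probe set, at -1.99 on the vehicle array, 0.00 with estradiol and 0.67 with ERα17p. It was 1 of 4 called list members whose ERα17p array was at least 1.5-fold from the reference. The others were LCP1, TAGLN and SEMA3A. Such an ERα17p array was found for 192 of the 3636 genes called over all genes. The laminin chain LAMC1 was 1.07 higher. The rest of the 4, chosen after their values were seen, were the matricellular THBS1 (1.30) and fibronectin FN1 (0.99), each with 7 probe sets that lay on both sides of 0. COL4A2, of basement membranes, was at -0.81, or -0.55 after quantile normalisation.

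Motility cues had 7 of 28 higher and 2 lower. SEMA3A, a repulsive guidance cue, was 2.09 higher (4.27-fold), with 3 probe sets from 1.34 to 2.18 and array values of -1.43, 0.69 and 0.63 on vehicle, estradiol and ERα17p. Its co-receptor NRP1 was 0.95 higher, with 4 probe sets from 0.10 to 2.37, and SEMA3C was 0.94 higher. The guidance cue SLIT2 was 0.63 higher and lay at 0.37 on the ERα17p array, against -0.27 on vehicle and -0.04 with estradiol. The chemokine CXCL8, which attracts neutrophils, was 2.20 higher, and its probe sets lay far apart, the higher at 3.40. On the low side were 2 genes named for suppressing metastasis, each with 1 probe set. KISS1 was at 3.30 with vehicle, -0.02 with estradiol and -0.02 with ERα17p, a difference of -3.32 (10.0-fold lower), and BRMS1 differed by -1.14. When shared probe sets were left out, 2 motility cues were higher and SLIT2 was at 0.56. Gene values of focal adhesion kinases and adaptors were mostly within 1.5-fold: 1 of 19 was higher (5.26%) and 2 lower (10.5%). The kinase SRC was at -0.02, with 7 probe sets from -0.36 to 0.38. PTK2 was at -0.01, but its 4 probe sets ran from -2.70 to 0.47.

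**Figure D4:**
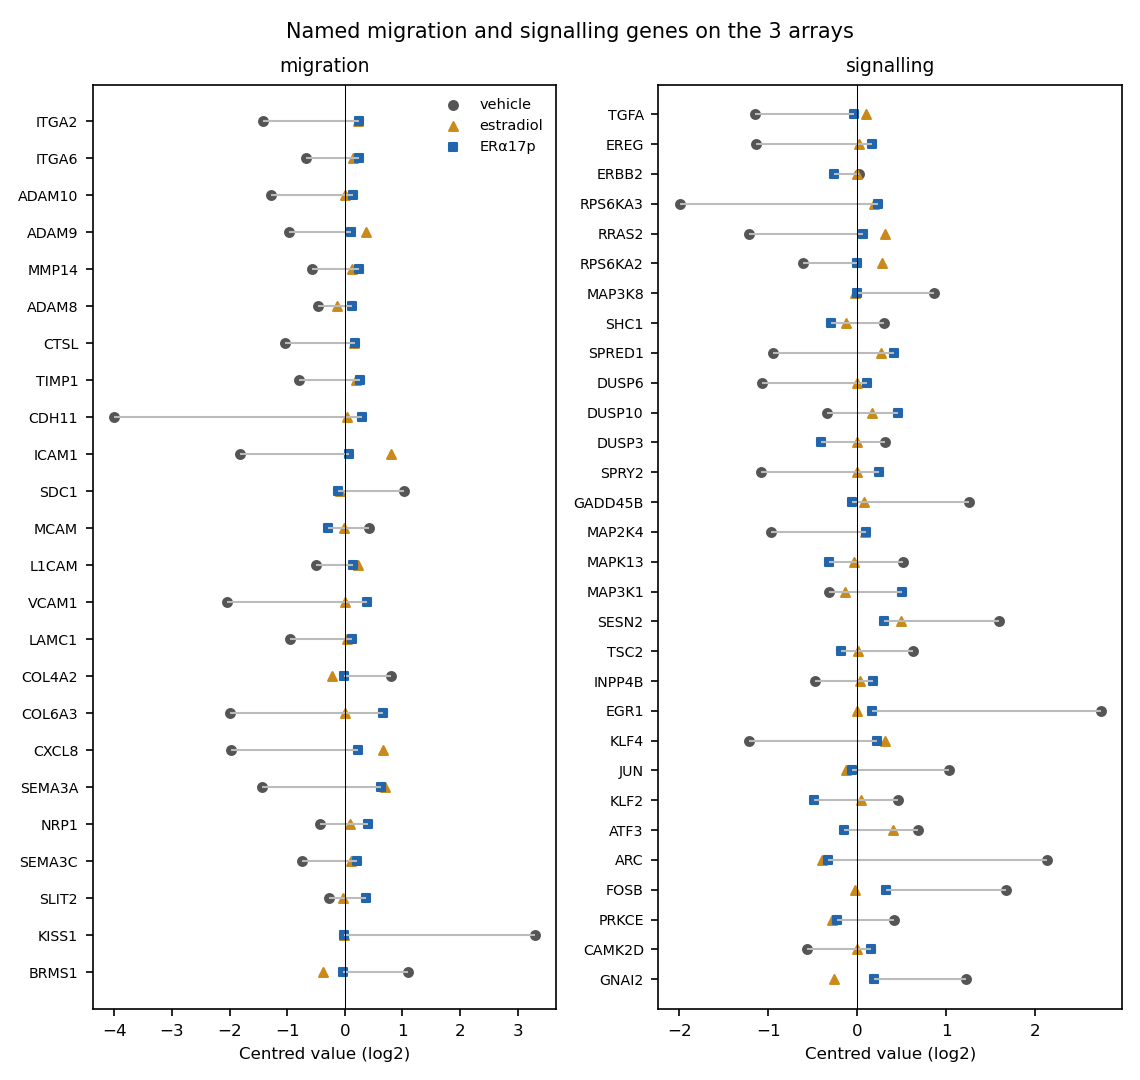
Centred log2 values (horizontal axis) of the named migration genes (left panel) and signalling genes (right panel) on the vehicle (grey circle), estradiol (orange triangle) and ERα17p (blue square) arrays, with a line from vehicle to ERα17p. CDH11 (-4.01 on vehicle) and KISS1 (3.30 on vehicle) mark the ends of the left panel, and EGR1 (2.74 on vehicle, 0.16 on ERα17p) the right end of the other.

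Signalling genes divided evenly, with 26 of 137 at least 1.5-fold higher and 26 lower (19.0% each), but the lists within them differed. Over all genes the shares were 9.56% and 8.82%. Feedback genes, most of them brakes on MAP kinase signalling, had 8 of 20 higher and 2 lower (median 0.38). Of their 17 DUSP, Sprouty and SPRED genes 5 were higher and 2 lower, and the other 3 genes, ERRFI1 (0.59), PHLDA1 (0.68) and IER3 (0.71), were all higher; these 3 were named after their values were seen. The list of immediate early transcription factors had 11 of 27 lower and 3 higher (median -0.31). Not all of its members are such factors, ARC and ELK1 among them. After quantile normalisation the first list had 6 higher and the second 7 lower; when shared probe sets were left out these counts were 5 and 7.

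Upstream, the EGFR ligands TGFA and EREG were 1.49 and 1.31 higher, but their probe sets ran from 0.15 to 1.99 and from 0.08 to 2.53. ERBB2 was at -0.77, with 3 probe sets from -0.95 to -0.14. Its array values were 0.02 on vehicle, 0.00 with estradiol and -0.26 with ERα17p. EGFR, with 9 probe sets, was at 0.06. Here 2 of 10 EGFR family genes were higher (20%) and 1 lower (10%), beside 9.56% and 8.82% over all genes.

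In the RAS to ERK cascade 5 of 17 measured members were higher (29.4%) and 4 lower (23.5%), beside 9.56% and 8.82% over all genes. RPS6KA3, or RSK2, a kinase that ERK activates, was 2.23 higher (4.69-fold), with probe sets at 1.67 and 2.79, from -2.00 on the vehicle array to 0.23 on the ERα17p array. RRAS2 was 1.21 higher. RPS6KA2 was 1.06 higher, with probe sets that ran from 0.00 to 3.22. On the low side were the kinase MAP3K8 (-0.86, with probe sets at -1.58 and -0.14, of which the first is not shared, and -0.57 after quantile normalisation) and the adaptor SHC1 (-0.59). MAPK3, or ERK1, was at -0.43 and MAP2K2 at 0.08.

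Of the brakes, SPRED1, which holds back RAF activation, was the most even. Its 3 probe sets were 1.12, 1.17 and 1.35 higher, and its array values were -0.94, 0.27 and 0.41 on vehicle, estradiol and ERα17p. DUSP6, a phosphatase of ERK, was 1.11 higher, and SPRY2 was 1.33 higher on 1 probe set. DUSP10, a phosphatase of JNK and p38, was 0.81 higher and lay farther from the reference on the ERα17p array (0.46) than on vehicle (-0.34). Its probe set that is not shared gave 0.55, from -0.04 on vehicle to 0.50. The other was at -0.65 and 0.42, with vehicle the farther. DUSP3 was lower, at -0.77 with all 3 probe sets at -0.72 or below, and again the ERα17p array (-0.41) was the farther one, against 0.31 on vehicle and 0.00 with estradiol.

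In the stress kinase cascades 4 of 19 were higher (21.1%) and 3 lower (15.8%), beside 9.56% and 8.82% over all genes. MAP2K4, which activates JNK, was 1.06 higher with the higher probe set at 1.12. MAP3K1, further up the same route, was 0.82 higher and was at -0.32 on vehicle, -0.13 with estradiol and 0.50 with ERα17p. These are medians of 2 probe sets that lay apart, at -0.10 and 1.10 on the ERα17p array. GADD45B, a stress-induced activator of these cascades, was at 1.26, 0.07 and -0.06, a difference of -1.28 with 4 probe sets from -1.40 to -0.77. The p38 kinase MAPK13 was at -0.82. JNK1, encoded by MAPK8, was at 0.16 with 5 probe sets.

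The PI3K and mTOR route had 2 of 25 higher and 2 lower, shares of 8% each, which are near the background of 9.56% and 8.82%. SESN2, a stress-induced inhibitor of mTOR complex 1, was at 1.59 on the vehicle array, 0.48 with estradiol and 0.30 with ERα17p, a difference of -1.29 with probe sets at -1.36 and -1.21. TSC2, another inhibitor of that complex, was at -0.80. INPP4B, a phosphatase of phosphoinositides, was 0.59 higher, and 0.49 after quantile normalisation. AKT1 (-0.35) and AKT2 (-0.41) did not pass 1.5-fold.

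EGR1 was the lowest of the immediate early genes. It was at 2.74 on the vehicle array, -0.01 with estradiol and 0.16 with ERα17p, a difference of -2.58 (5.96-fold lower) with probe sets at -3.65, -2.58 and -2.38. ARC and FOSB, each on 1 probe set, were at -2.46 and -1.35. JUN differed by -1.11, with 4 probe sets from -1.75 to -0.52, and KLF2 by -0.94. FOS (-1.21) and JUNB (-1.30), chosen after their values were seen, were lower as well. KLF2 was the one of the 11 lower genes whose ERα17p array (-0.48) lay farther from the reference than its vehicle array (0.45). ATF3 was at 0.68, 0.40 and -0.16, medians that mix probe sets. Its 3 probe sets gave differences of -1.82, -0.84 and -0.21, and -0.52 when shared ones were left out. On the first, the array values were 1.91, 0.40 and 0.09, with estradiol nearer to ERα17p. On the second they were 0.68, 0.52 and -0.16, with estradiol nearer to vehicle. KLF4 was on the high side, at 1.43. SRF (0.16), MYC (0.37) and the NR4A genes (NR4A1 at 0.13, NR4A2 at 0.27 and NR4A3 at -0.19) did not pass 1.5-fold. Against the reference in place of vehicle the median of this list was 0.052 and EGR1 was at 0.16, which reversed both directions.

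Since immediate early and stress fibre genes stood lower side by side, their promoters were read on both strands for 2 motifs. The CArG box is bound by the serum response factor SRF, which drives many immediate early and actin genes, and TGACNTCA is a class of site bound by ATF and JUN proteins. The CArG box reads the same from either strand, and TGACNTCA reads TGANGTCA from the other; no match of one overlapped a match of the other in the stretches printed. Lower genes with a match in the 250 bases before the start of transcription are shown, except JUND, KLF6 and MYL6. The stretches below are from RefSeq (GRCh38.p14). They run 5′ to 3′ on the strand of the gene, with the motifs in capitals.

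EGR1, chr5:138465344-138465435 (+): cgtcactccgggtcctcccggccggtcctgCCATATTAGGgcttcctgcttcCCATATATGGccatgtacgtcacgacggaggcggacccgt
CNN2, chr19:1026489-1026558 (+): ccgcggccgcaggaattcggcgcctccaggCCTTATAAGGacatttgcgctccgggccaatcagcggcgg
JUN, chr1:58784077-58784144 (-): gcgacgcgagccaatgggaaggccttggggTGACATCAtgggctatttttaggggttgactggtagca
ATF3, chr1:212565254-212565321 (+): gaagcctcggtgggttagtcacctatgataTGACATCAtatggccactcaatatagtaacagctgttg

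The EGR1 stretch held 2 CArG boxes, from -105 to -96 and from -83 to -74 relative to the start, and the CNN2 stretch held 1, from -89 to -80. A CArG box was found in 1.16% of 35116 promoters, in 2 of 21 immediate early promoters in the table (EGR1 and SRF itself) and in 4 of 28 of the stress fibre list. Of those 4 only CNN2 was lower; MYLK (0.30), TPM4 (0.00) and FHL2 (0.36) did not pass 1.5-fold. TGACNTCA was found in 6.87% of all promoters and in 2 of the 28 stress fibre ones (7.14%). Of these MYL6 (-0.73) was lower and CNN1 (-0.42) was not past 1.5-fold. It was also found in 5 of the 21 immediate early ones, of which JUN, JUND, ATF3 and KLF6 were lower and MAFF (-0.09) was not past 1.5-fold. The 35116 promoters were not limited to measured genes, while each list gene was counted by 1 promoter. The shares set side by side are thus on unlike sets. A match is a string of letters and shows no binding.

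The receptors themselves did not pass 1.5-fold. ESR1, which encodes ERα, was at 0.00 on the vehicle array, -0.11 with estradiol and -0.14 with ERα17p, with 9 probe sets from -0.65 to 0.31 and a gene value of -0.14. ESR2 was at 0.08 with 6 probe sets from -0.13 to 0.24, and GPER1 at 0.09 with probe sets at -0.01 and 0.19. Of 19 genes of oestrogen receptors, calmodulin kinases and G protein links, 2 were higher (10.5%) and 3 lower (15.8%). The shares over all genes were 9.56% and 8.82%, so the high side was near background. GNAI2, the alpha subunit of an inhibitory G protein, was at 1.22 on vehicle, -0.27 with estradiol and 0.19 with ERα17p, a difference of -1.03 on 1 probe set, or -0.56 after quantile normalisation. The calmodulin kinase CAMK2D was 0.64 higher with 5 probe sets from 0.12 to 1.18, and the protein kinase C gene PRKCE was at -0.66, or -0.58 after quantile normalisation.

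**Figure D5:**
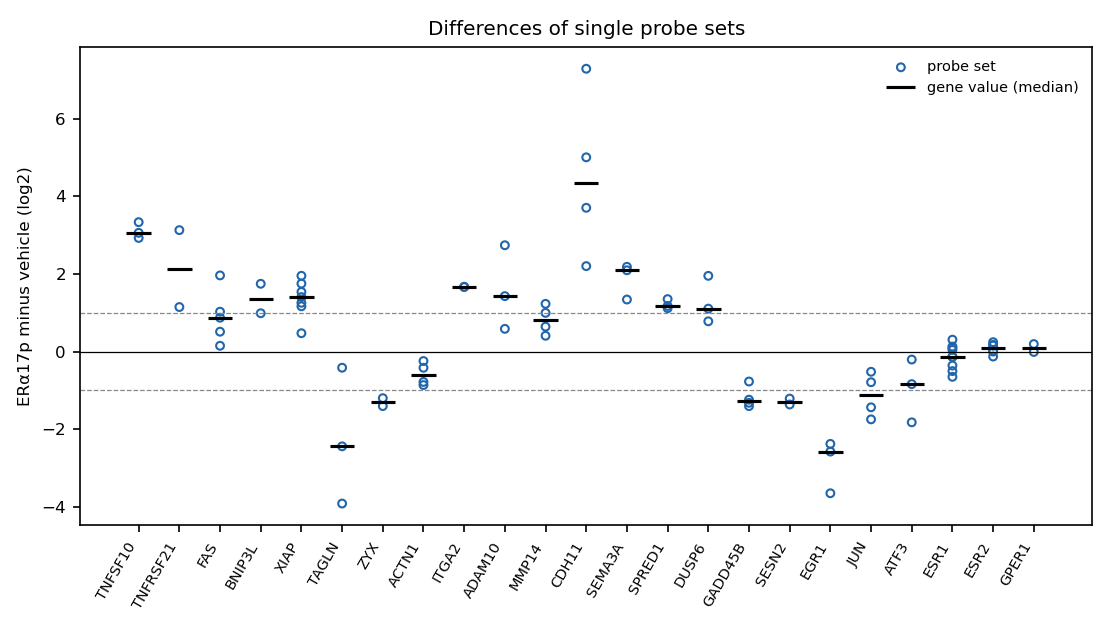
Log2 difference of ERα17p from vehicle (vertical axis) for every probe set (circles) of 23 genes measured by 2 or more, with the gene value (median) as a black bar and 2-fold as dashed lines. The probe sets of TNFSF10, ITGA2, SPRED1, ZYX and SESN2 lie close together, those of CDH11 (2.20 to 7.28) and TAGLN (-3.91 to -0.42) spread widely, and those of ESR1, ESR2 and GPER1 lie about 0.

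In 114 of the 129 called list members the vehicle array lay farther from the reference than the ERα17p array did. This was so for 3076 of the 3636 genes called at 1.5-fold over all genes, a share near that of the list members. In the other 15 list members the ERα17p array lay at least as far, and these were picked out after their values were seen. They were BCL2A1, BCL2L2, BMF and BOK of apoptosis, FMNL2, LCP1, MYL6 and TLN1 of actin, SDC4 and SLIT2 of migration, and ERBB2, DUSP10, DUSP3, MAP3K1 and KLF2 of signalling. Of these only LCP1 had an ERα17p array at least 1.5-fold from the reference. BOK (0.29 on vehicle, -0.32 with ERα17p), MYL6 (0.36 and -0.38) and KLF2 (0.45 and -0.48) were near ties. These placings are by gene medians and did not hold on every probe set, as for BCL2L2, DUSP10, DUSP3 and KLF2. For TLN1 (0.00 and -0.06) and ERBB2 (0.02 and -0.26) the array medians did not carry the differences of -0.65 and -0.77. SDC4, or syndecan-4, a co-receptor at focal adhesions, was at 0.38 on vehicle, -0.07 with estradiol and -0.52 with ERα17p. BMF, a BH3-only gene, was at -0.26, 0.22 and 0.53.

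The estradiol array shares the vehicle array, so the agreement of the treated arrays' differences from it is no separate evidence. Side by side, the medians of the ERα17p and estradiol differences from vehicle were 0.38 and 0.30 for the feedback genes, -0.31 and -0.29 for immediate early genes, -0.29 and -0.23 for stress fibres, 0.26 and 0.31 for matrix proteases and 0.12 and 0.36 for adhesion molecules. For single genes, TNFSF10 was at 3.06 and 2.76, TAGLN at -2.44 and -1.89, LCP1 at -1.96 and -0.49, ERBB2 at -0.77 and -0.03, FMNL2 at 0.73 and 0.10, ATF3 at -0.84 and -0.16, MAP3K1 at 0.82 and 0.19, and ICAM1 at 1.90 and 2.77. For ERBB2, FMNL2 and ATF3 these gaps varied with the probe set. On the probe set with the largest difference, estradiol lay nearer to ERα17p. On vehicle, estradiol and ERα17p it was at 0.75, 0.00 and -0.20 for ERBB2 and -1.28, -0.05 and 0.02 for FMNL2. For ATF3 it was at 1.91, 0.40 and 0.09. On another probe set of each, estradiol lay nearer to vehicle, as for ERBB2 at 0.02, -0.01 and -0.75. MAP3K1 varied the other way. On its probe set with the larger difference (-0.05, 0.00 and 1.10) estradiol lay nearer to vehicle. On its other probe set (-0.60, -0.27 and -0.10) estradiol lay nearer to ERα17p. Whether any of the pairs above differ beyond array noise could not be tested with 1 array each.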

How the data were processed

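Expression of MDA-MB-231 cells was measured on 1 array for each of vehicle, estradiol and ERα17p; the ERα17p and vehicle arrays make up the comparison. Per the submitters' processing notes the authors used RMA; its version is not given. The deposited numbers were read as log2, the scale on which RMA reports. No source used here describes the log base or the centring of each probe set, and every array had a median of 0. Depth does not apply, and the number of arrays (1 a group) limits the precision. RMA normally equalises the distributions of arrays, but after the centring their SDs differed.

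Differences were taken per probe set and summarised by the median per gene, with calls at 2-fold (genes) and 1.5-fold (list members). Symbols came from the platform's annotation; 1801 probe sets with several symbols and 11777 unnamed ones were left out. Entrez identifiers of 19734 genes matched RefSeq (GRCh38.p14) with 0 symbols differing. In each list, members with 2 or more probe sets in 1 direction and past 1.5-fold were named, up to 5, then up to 2 with 1 probe set past 2-fold; over all genes, 12 a direction; ESR1, ESR2 and GPER1 always. The members, lists and rules were chosen with earlier results of these data known. No filter on low expression could be applied, since no level is left. Alternatives were the mean of probe sets, leaving out probe sets shared by several transcripts, quantile normalisation, equal SD, the reference as baseline, only genes with probe sets in 1 direction, and other fold limits. One gene list is not reported here, and the totals leave it out. The scripts were tested on simulated data. Python 3.11.15, pandas 2.3.3, NumPy 2.4.6 and Matplotlib 3.10.9 were used.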

Additional observations from a re-analysis of the deposited data

How the results depend on the processing

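Counts of genes depended on the baseline and on scaling. Genes at least 2-fold higher and lower numbered 661 and 491. They were 397 and 295 after quantile normalisation, 429 and 273 with arrays scaled to equal SD, 3 and 10 with the reference as baseline instead of vehicle, 334 and 156 with only genes of 2 or more probe sets in 1 direction, and 1891 and 1745 at 1.5-fold. Genes with every one of 2 or more probe sets past 2-fold numbered 108 higher and 58 lower. They were 58 and 16 after quantile normalisation, 63 and 21 with equal SD, 0 and 1 against the reference, 57 and 26 when probe sets shared by several transcripts were left out, and 347 and 271 at 1.5-fold. The mean of probe sets gave 646 and 473. Fewer genes and a lower limit shape 3 of these by construction; otherwise the cause was not tested.

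Among named genes, none of 104 changed sign under the mean of probe sets, quantile normalisation or equal SD, and 1, 12 and 12 dropped inside 1.5-fold. When shared probe sets were left out 79 had a value, of which 12 dropped inside 1.5-fold, and ESR1, never past that limit, changed sign (to 0.13); the other 25, EGR1 and ICAM1 among them, could not be evaluated. Under that setting MYL6 was at -1.18, L1CAM at 1.03, RPS6KA2 at 2.14, JUN at -1.75, CAMK2D at 1.16 and GADD45B at -0.77. Against the reference 85 dropped inside 1.5-fold, and 6 reversed: TGFA (-0.035), SESN2 (0.30), EGR1 (0.16), FOSB (0.32), GNAI2 (0.19) and PLCB4 (0.069). GPER1, within 1.5-fold throughout, changed sign there too (to -0.04). The immediate early median reversed there too (0.052), and the median of apoptosome and caspase genes did with only genes of 2 or more probe sets in 1 direction (0.0088). No paired analysis was possible because each group had 1 array, and no replicate could be left out. Levels and signal over background are unknown, so differences of genes at the edge of detection cannot be told from others.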
